A study of Mus musculus with 12 samples.

Results

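The comparison described here set mRNAs bound to ribosomes of the endoplasmic reticulum (ER) against whole-cell mRNA in mouse embryonic stem cells that had received an siRNA against Lsg1. It used 6 of the 12 libraries of the series: 3 ER-bound libraries and 3 whole-cell libraries, labelled biological replicates 1 to 3 in each, with the same number taken from the same lysate. The other 6 libraries, the same fractions from cells that had received a scramble siRNA, were used for the shared estimate of spread and for 1 comparison at the end. All cells were of the E14Tg2a.4 line carrying Rpl31-FTA, a large-subunit ribosomal protein fused to FLAG, a TEV protease site and an AviTag that can be biotinylated, and were grown with serum and leukemia inhibitory factor. Plasmid-encoded fragments of ALIBi, a proximity-labelling system, were targeted to the ER, and the ribosomes biotinylated there were affinity-purified and their polyadenylated RNA sequenced. The labelled tag, the ER-targeted ALIBi and the purification were thus shared by the scramble cells. Whether the tagged line is 1 clone, and how long after siRNA delivery the cells were lysed, the labels do not say.

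Most proteins that enter the secretory pathway are recognised while they are being made. A hydrophobic signal sequence or membrane span emerging from the ribosome is bound by the signal recognition particle (SRP), which docks the ribosome at the SRP receptor and the Sec61 translocon of the ER membrane. The mRNA is therefore held at the ER through its nascent chain, whereas tail-anchored proteins, whose single membrane span lies at the very end, are released first and inserted afterwards. Lsg1 is a GTPase that acts in the last cytoplasmic steps of 60S subunit maturation.

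The coding ends of 4 such mRNAs and 4 counterparts show the features against which the values below are set. They are taken from GENCODE vM21 transcripts on GRCm38, since no genome of the build used for counting was given. The first 36 codons are shown for a pair of Hsp70 paralogs and a pair of Hsp90 paralogs, of which one works in the ER lumen (Hspa5, Hsp90b1) and the other in the cytosol (Hspa8, Hsp90ab1), and for 2 of the most ER-enriched secreted proteins (Lefty2, Gpx3). Capitals mark the most hydrophobic stretch of 11 codons where its mean Kyte-Doolittle hydropathy was at least 2.0; Hspa8 and Hsp90ab1 had none.
Hspa5 start: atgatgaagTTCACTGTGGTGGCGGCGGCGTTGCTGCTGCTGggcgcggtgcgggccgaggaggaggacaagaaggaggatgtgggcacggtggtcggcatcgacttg
Hspa8 start: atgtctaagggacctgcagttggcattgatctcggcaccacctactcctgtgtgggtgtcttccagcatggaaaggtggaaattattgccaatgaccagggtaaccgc
Hsp90b1 start: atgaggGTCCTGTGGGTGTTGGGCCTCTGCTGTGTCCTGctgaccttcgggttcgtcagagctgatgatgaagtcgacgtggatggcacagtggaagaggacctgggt
Hsp90ab1 start: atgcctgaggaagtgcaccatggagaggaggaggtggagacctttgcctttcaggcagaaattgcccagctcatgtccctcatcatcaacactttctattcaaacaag
Lefty2 start: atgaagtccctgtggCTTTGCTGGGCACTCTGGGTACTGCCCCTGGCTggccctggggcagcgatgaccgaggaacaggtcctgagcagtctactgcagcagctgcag
Gpx3 start: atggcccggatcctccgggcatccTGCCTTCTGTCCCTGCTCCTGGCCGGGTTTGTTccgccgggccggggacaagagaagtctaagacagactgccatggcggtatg
The last 50 codons are shown for 2 tail-anchored proteins, the translocon subunit Sec61b and the contact-site protein Vapa, with the most hydrophobic 19 codons in capitals.
Sec61b end: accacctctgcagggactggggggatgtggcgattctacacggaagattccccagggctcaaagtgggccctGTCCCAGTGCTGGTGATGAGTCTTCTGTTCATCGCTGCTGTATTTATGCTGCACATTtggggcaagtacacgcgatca
Vapa end: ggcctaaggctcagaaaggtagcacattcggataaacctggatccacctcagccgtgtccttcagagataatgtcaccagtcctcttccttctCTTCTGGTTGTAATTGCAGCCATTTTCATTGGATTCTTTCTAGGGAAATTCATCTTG

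Levels of the paralogs were then read beside these starts. Hspa5, the Hsp70 chaperone of the ER lumen, stood at 778, 738 and 777 CPM (a gene's reads scaled to a common library total) in the ER-bound libraries 1 to 3 and at 437, 444 and 461 CPM in the whole-cell libraries. Every ER-bound library lay above every whole-cell library, and the log2 fold was 0.77 (SE 0.03). Among all 17702 tested genes, 33.0% had every ER-bound library above every whole-cell one, and 31.5% had every one below. Hspa8, its cytosolic counterpart, stood at 2247, 2388 and 2346 CPM on ER-labelled ribosomes and at 2272, 2247 and 2234 CPM in whole-cell RNA. The Hspa8 groups overlapped and the log2 fold of 0.05 did not pass (edgeR adjusted p = 0.22). Hsp90b1, the ER-lumenal Hsp90, stood at 1121, 1051 and 1051 CPM against 730, 726 and 716 CPM, with no overlap and a log2 fold of 0.57 (SE 0.03). Cytosolic Hsp90ab1 stood at 5882, 5784 and 5686 CPM against 5624, 5526 and 5533 CPM. Its log2 fold was 0.06, a call that passed in the fit to all 12 libraries (edgeR adjusted p = 0.0077) but was lost when any 1 of the 6 libraries was left out, and turned to -0.13 after an offset for GC content and transcript length. The 4 paralogs and Vapa were picked for this display after their values had been seen.

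The ER-bound libraries held 47836212, 40473706 and 41374963 reads in genes and the whole-cell libraries 40121093, 56522114 and 44437224. Whole-cell replicate 3 stood apart from the other 5. The gene ENSMUSG00000119584, to which the annotation used here gives no name, took 1.49% of the reads of that library. It took 0.123% to 0.302% in the other 5 and 1.86% in ER-bound scramble replicate 3. Counts of whole-cell replicate 3 differed from those of replicates 1 and 2 by a chi-square per degree of freedom of 29.5 and 30.2. The other replicate pairs had 2.51 to 5.04. This chi-square includes ENSMUSG00000119584, with 661601 reads against 95443 and 170416, and was not computed without that gene. It is therefore no separate sign that other genes differed. Results that turned on whole-cell replicate 3 are also given without it. Pluripotency markers summed to between 11117 and 11699 CPM in the ER-bound libraries and 9075 to 9233 CPM in whole-cell RNA, and all 14 were tested. Fibroblast or feeder markers summed to between 336 and 345 CPM against 258 to 274 CPM, mostly from Vim, while 3 of the 9 markers, Lum, Dcn and Postn, were below the expression filter and Lum had no read in any of the 6 libraries. Primitive endoderm markers summed to 31.1 to 34.4 CPM against 50.9 to 54.3 CPM, of which Lama1 was the larger share. The sum of 2-cell-like markers was at most 42.1 CPM against at most 16.7 CPM. All 8 tested 2-cell-like markers were higher on ER-labelled ribosomes (edgeR adjusted p under 0.05), against 30.6% of all tested genes. Their log2 folds ran from 1.00 (Zscan4c) to 1.88 (Tmem92), at levels of at most 10.8 CPM. The part of these minor populations in the results was not tested. In bulk RNA, a low level from few cells of a type and a low level from little RNA per cell cannot be told apart. Both fractions of a same-numbered pair came from the same lysate.

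The 2 genes tied to the design differed in direction. Rpl31, whose protein carries the tag, stood at 984, 970 and 972 CPM on ER-labelled ribosomes and at 886, 890 and 898 CPM in whole-cell RNA (log2 fold 0.13, SE 0.03, edgeR adjusted p = 0.00044); its log2 fold was -0.01 after an offset for GC content and transcript length. Lsg1, the siRNA target, stood at 35.4, 42.5 and 52.5 CPM against 83.5, 96.7 and 114 CPM. The ER-bound libraries lay below the whole-cell ones without overlap, as they did for 31.5% of all tested genes. Lsg1 fell by 1.18 on the log2 scale (SE 0.11, edgeR adjusted p = 2.6e-08). Scramble cells had means of 148 CPM on ER-labelled ribosomes and 143 CPM in whole-cell RNA, above every Lsg1 siRNA library.

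In edgeR's quasi-likelihood fit, after Benjamini-Hochberg adjustment, 60.3% of the 17702 tested genes differed: 30.6% were called higher on ER-labelled ribosomes and 29.8% lower, at an adjusted p under 0.05. All later counts of higher and lower genes use this rule, and a list is to be read against these shares and against a median log2 fold of 0.02 over all tested genes. Scaling by library totals in place of TMM put 6686 genes higher and 4142 lower and moved the median of all genes to 0.11. Most called differences were modest: 53.8% of the higher genes and 69.7% of the lower genes changed by less than 1.5-fold. At least 2-fold, 910 genes (5.14%) were higher and 593 (3.35%) lower. At least 4-fold, 24 genes were higher and 142 lower, and at least 8-fold none was higher and 50 were lower. The genes called higher took 39.9% ± 0.403 of the reads of the ER-bound libraries (SD, n = 3) and 28.7% ± 0.196 of those of whole-cell RNA. Those called lower took 41.2% ± 0.379 and 53.6% ± 0.334. No library held RNA of all ribosomes, so the extent to which an mRNA is translated at all and its location at the ER cannot be told apart in these values.

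The 12 largest rises among named protein-coding genes with at least 10 CPM were, without exception, genes of secreted, lysosomal, surface or ER proteins. Serpine2, a secreted inhibitor of serine proteases, stood at 59.9, 60.8 and 63.7 CPM on ER-labelled ribosomes and at 13.7, 14.7 and 12.3 CPM in whole-cell RNA. Perp, a tetraspan membrane protein of desmosomes, stood at 98.1, 99.9 and 107 CPM against 28.7, 28.4 and 26.6 CPM. In both genes the lowest ER-bound library was more than 3-fold above the highest whole-cell one, and the log2 folds were 2.17 (SE 0.06) and 1.86 (SE 0.05). Ephx1, an epoxide hydrolase anchored in the ER, reached 1.76, and Plet1, a GPI-anchored surface protein, 1.68. The secreted glutathione peroxidase Gpx3 reached 1.64, the TGF-beta co-receptor Eng 1.61, the heparan sulfate proteoglycan Sdc4 1.59 and the Nodal antagonist Lefty2 1.58. Lefty2 stood at 141, 128 and 134 CPM against 48.3, 43.7 and 42.6 CPM. The remaining 4 were Fgfbp1, a carrier of fibroblast growth factors (1.56), Cgref1 (1.54), progranulin or Grn (1.49) and the lipid carrier Apoe (1.48). All 12 were higher in 3 of 3 same-lysate pairs, which the rule for naming them required.

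**Figure D1:**
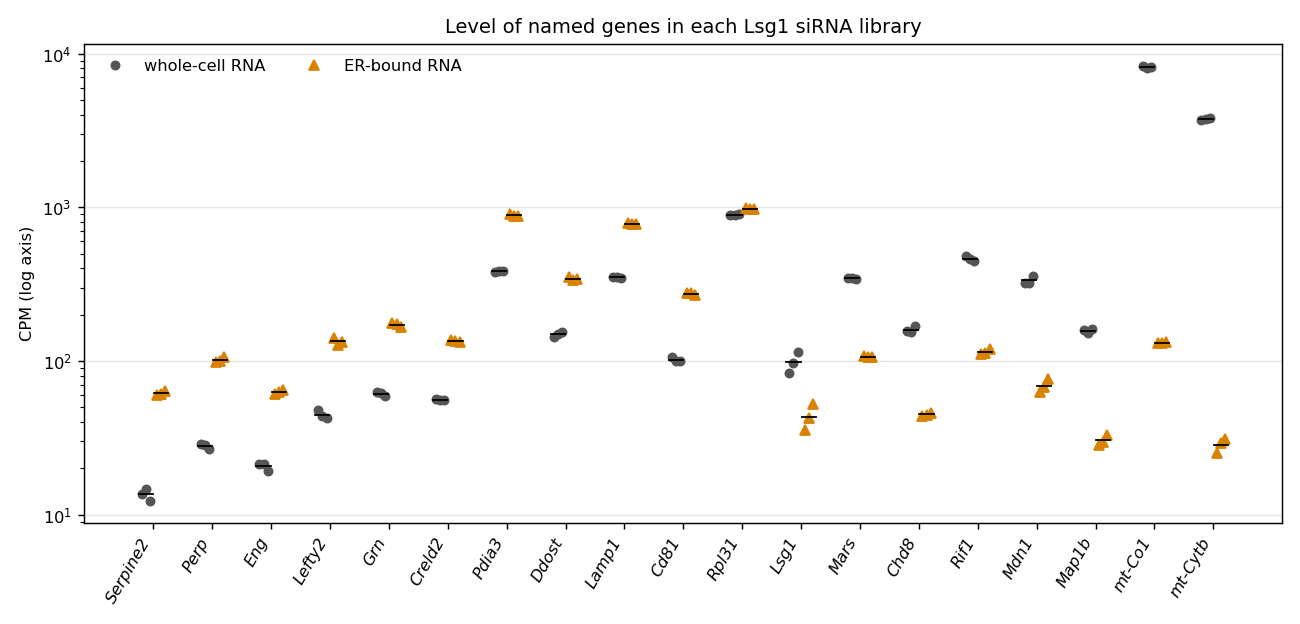
Level of named genes in each Lsg1 siRNA library, in CPM on a log axis; circles are the 3 whole-cell libraries, triangles the 3 ER-bound libraries (replicates 1 to 3 from left to right), and bars their means. Secretory genes such as Serpine2 lie higher on ER-labelled ribosomes, Rpl31 lies close to equal, and Lsg1, Mars, Map1b and the mitochondrial mRNAs lie lower.

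The machinery of the ER was described by role, beginning with targeting. Of 9 tested proteins of SRP and its receptor, 4 were higher and 3 lower (median 0.02). The receptor's membrane subunit Srprb had a log2 fold of 0.82, and its partner Srpr, which is recruited to the membrane through Srprb, one of 0.39. Among the SRP proteins, Srp14 reached 0.35, Srp68 stood at -0.22 and Srp54c at -0.21. Srp72 (0.01) and Srp19 (0.02) did not pass. The translocon and its partners had 20 of 21 members called higher and none called lower (median 0.78). Ssr2, of the translocon-associated protein complex, stood at 597, 606 and 592 CPM against 285, 305 and 316 CPM, a log2 fold of 0.99. Ncln, of the multipass translocon, reached 0.97 and Ssr1 0.90. The member that did not pass was the tail-anchored Serp1 (-0.02), and the tail-anchored channel subunits Sec61g (0.20) and Sec61b (0.27) were the lowest of the rest. The ER membrane complex, an insertase, was higher for 9 of 10 subunits. Its lumenal and membrane subunits Emc7 (1.16), Emc4 (1.10), Emc10 (0.97) and Emc3 (0.92) led, the soluble cytosolic subunit Emc8 reached 0.17, and soluble Emc2 was the member called lower (-0.19). Emc9, the paralog of Emc8, reached 0.77 at levels as low as 3.27 CPM on ER-labelled ribosomes.

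Enzymes that act on the entering chain were higher throughout. Signal peptidase and oligosaccharyltransferase subunits were higher for 17 of 17 members (median 0.85), and 6 of them by at least 2-fold. Ddost, of the oligosaccharyltransferase, stood at 354, 336 and 341 CPM against 144, 149 and 154 CPM, a log2 fold of 1.21 (SE 0.04). The signal peptidase subunits Spcs2 and Sec11a reached 1.05 and 1.04. Chaperones, disulfide isomerases and oxidases of the lumen were higher for 47 of 48 members (median 0.92), 20 of them by at least 2-fold. Creld2 stood at 138, 135 and 132 CPM against 56.3, 56.0 and 56.1 CPM, a log2 fold of 1.26 (SE 0.04). Pdia3, a disulfide isomerase of the glycoprotein folding cycle, and Dnajb11, a co-chaperone of Hspa5, reached 1.20 and 1.15. The 1 member that did not pass was the neurotrophic factor Cdnf (-0.30). ER-associated degradation, which returns misfolded chains to the cytosol, had 24 of 29 members called higher and none called lower (median 0.67), with Selenos at 1.18, the channel protein Derl1 at 0.97 and Ubxn4 at 0.68. Its 5 members that did not pass had log2 folds of -0.09 to 0.13.

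Next came proteins that pass through the ER. Golgi glycosyltransferases and sugar transporters were higher for 52 of 59 members (median 0.54), among them the nucleotide sugar transporters Slc35a1 (0.86) and Slc35b2 (0.80) and the N-glycan branching enzyme Mgat4b (0.68). Mgat3 was the 1 member called lower (-0.13). Lysosomal enzymes and activators were higher for 47 of 48 (median 0.91), 18 of them by at least 2-fold. The aspartic protease Ctsd stood at 256, 253 and 253 CPM against 100, 101 and 92.9 CPM, a log2 fold of 1.37 (SE 0.04), and the peptidase Tpp1 reached 1.20. The iduronate sulfatase Ids (0.01) was the member that did not pass.

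Secreted ligands and matrix proteins had 55 of 71 members called higher and 6 called lower (median 0.71). Sparc, a collagen-binding matrix protein, stood at 425, 410 and 422 CPM against 188, 182 and 196 CPM (log2 fold 1.15). Single-pass surface receptors and adhesion proteins had 66 of 85 members called higher and 4 called lower (median 0.53). The lactate transporter chaperone Bsg stood at 749, 705 and 698 CPM against 290, 288 and 298 CPM (log2 fold 1.30), and the adhesion protein Nectin2 reached 1.23. Multi-pass surface proteins had 47 of 55 members called higher and 4 called lower (median 0.68), with the tetraspanins Cd81 and Tspan31 at 1.43 and 1.23. Solute carriers outside the Slc25 family had 177 of 238 members called higher and 7 called lower (median 0.45), including the amino acid transporter heavy chain Slc3a2 (0.62) and the thiamine transporter Slc19a2 (0.99). Genes named Tmem had 167 of 203 members called higher and 4 called lower (median 0.67), including Tmem43 (1.36), Tmem19 (1.35) and Tmem97 (1.10).

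The cargo genes called lower were, in several cases, very long. The laminin chain Lama1, of 3083 residues, stood at 22.7, 19.9 and 19.2 CPM against 43.5, 39.7 and 42.6 CPM, a log2 fold of -1.02 (SE 0.06). The endocytic receptors Lrp2 and Lrp1, of 4660 and 4545 residues, had log2 folds of -1.13 and -0.87, and the basement membrane proteoglycan Agrn, of 2034 residues, one of -0.40. The Hedgehog receptor Ptch1, of 1434 residues, stood at -0.41, and at 0.03 (edgeR adjusted p = 0.65) after an offset for GC content and transcript length. Length does not set all of them apart. Tmem245, of 880 residues, stood at -0.75, Slc5a3, of 718 residues, at -0.61 and Cmtm4, of 208 residues, at -0.48.

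**Figure D2:**
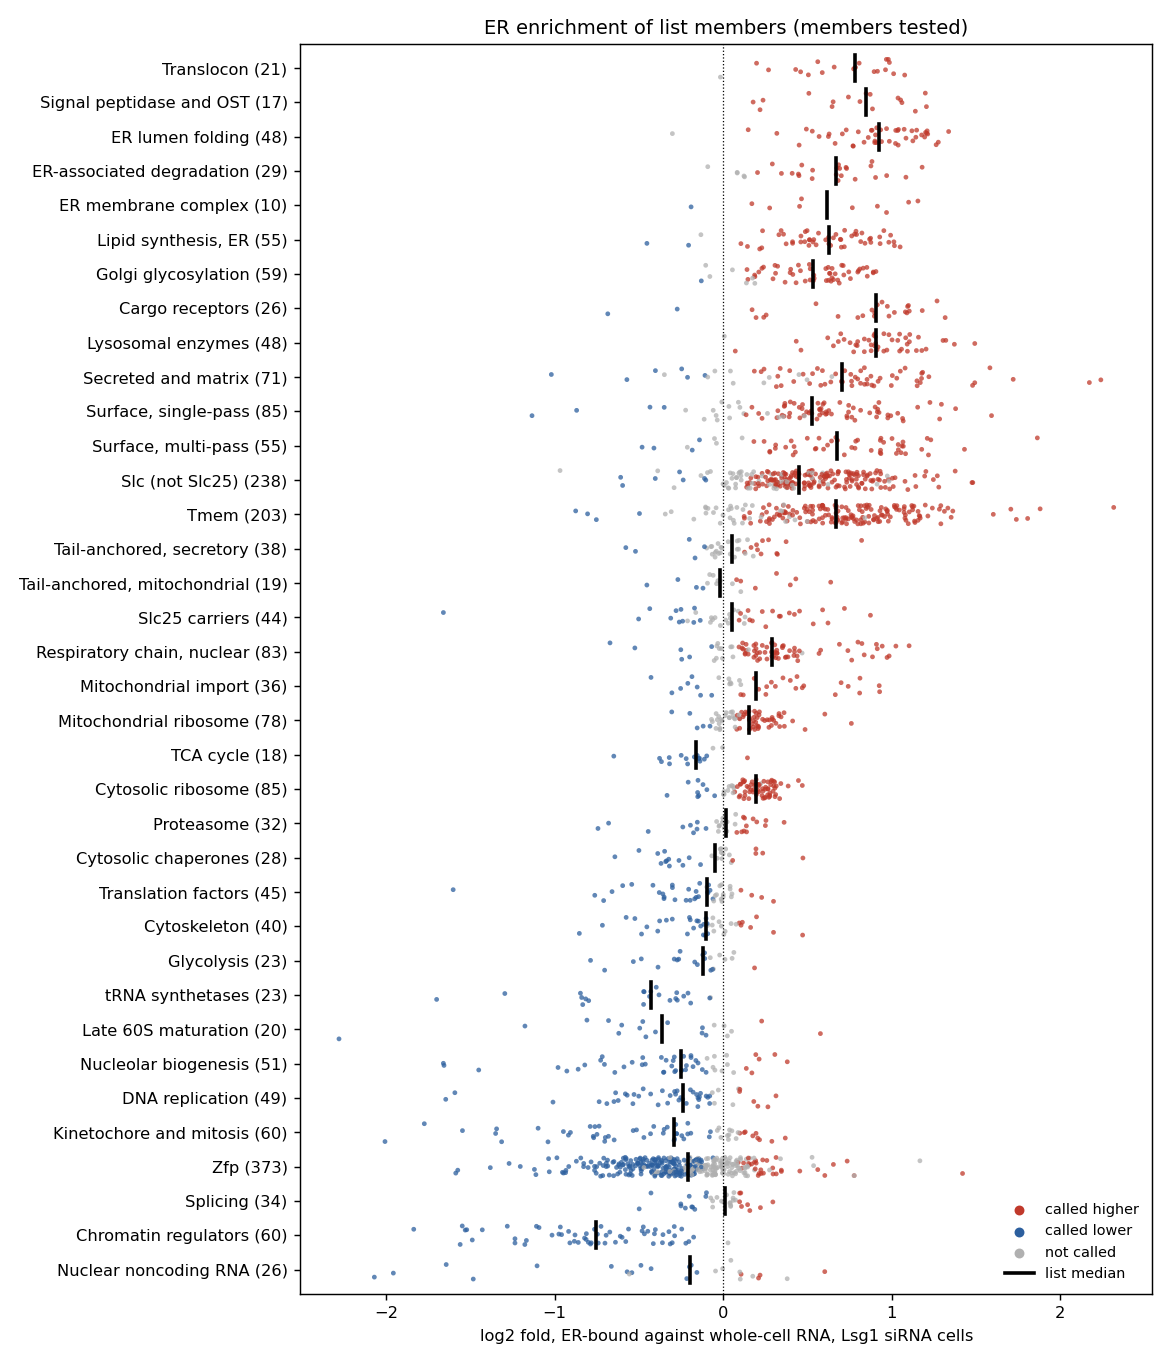
Each tested member of the gene lists by its log2 fold, ER-bound against whole-cell RNA; points are genes, coloured by call, black bars are list medians and the number of members tested is in parentheses. The plotted lists of the ER and of secretory cargo, which leave out SRP and its receptor (median 0.02), have medians of 0.45 to 0.92, tail-anchored lists lie near 0, and lists of cytosolic and nuclear proteins have medians of -0.75 to 0.20.

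Several machines are built from both membrane-borne and soluble parts, and the parts were compared within each. The proton pump V-ATPase has a membrane sector and a peripheral sector. Membrane subunits and accessory proteins were higher for 9 of 9 members (median 0.99), led by the proteolipid subunits Atp6v0c (1.25) and Atp6v0b (1.15), and the lowest was Atp6v0a1 at 0.50. Peripheral subunits had 5 of 10 members called higher and 2 called lower (median 0.06). The catalytic subunit Atp6v1a stood at 125, 127 and 123 CPM against 170, 166 and 163 CPM (log2 fold -0.41), Atp6v1b2 at -0.27, and Atp6v0d1, a peripheral subunit of the membrane sector, at 0.36. No membrane subunit lay below any peripheral subunit.

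At the nuclear envelope, soluble nucleoporins were lower for 24 of 24 members (median -0.52), while membrane nucleoporins and inner membrane proteins had 6 of 10 members called higher and 1 called lower (median 0.26). Tpr, of the nuclear basket, stood at 176, 188 and 194 CPM against 413, 389 and 375 CPM (log2 fold -1.08), and Ranbp2 and Ahctf1 at -1.46 and -1.31. Among membrane members, Lemd2 reached 0.73, Sun2 0.65 and Tmem43 1.36. The membrane nucleoporin Pom121 did not pass (-0.13), and Nup210 was called lower (-0.11). The Nup210 call was lost without whole-cell replicate 3 (-0.08, edgeR adjusted p = 0.13) or without ER-bound replicate 3 (edgeR adjusted p = 0.055), and its direction turned under the GC and length offset (0.04).

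In peroxisomes, peroxins and transporters of the membrane had 12 of 15 members called higher and 1 called lower (median 0.56), with Pex10 at 0.62, Pex14 at 0.60 and Pex13 at 0.55. Soluble peroxins and matrix enzymes had 12 of 20 members called lower and 2 called higher (median -0.16), with the ether lipid enzyme Agps at -0.64 and the export ATPase Pex6 at -0.55. In lipid synthesis, ER membrane enzymes and regulators had 52 of 55 members called higher and 2 called lower (median 0.63). The desaturase Degs1 stood at 162, 165 and 161 CPM against 84.9, 84.0 and 87.2 CPM (log2 fold 0.93), the enoyl reductase Tecr reached 1.01 and Hsd17b12 0.82. Lanosterol synthase Lss, which lies on one face of the ER membrane, was called lower (-0.45). The cytosolic enzymes of the same pathways had 6 of 11 members called lower and 2 called higher (median -0.30). Fatty acid synthase Fasn stood at 250, 263 and 281 CPM against 552, 574 and 640 CPM (log2 fold -1.15), Acly at -0.54 and Hmgcs1 at -0.45, while mevalonate kinase Mvk was higher (0.40).

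For traffic between ER and Golgi, membrane cargo receptors had 24 of 26 members called higher and 2 called lower (median 0.91), with Bcap31 at 1.10, Tmed10 at 1.10 and Surf4 at 1.02; Tmed8, for which no hydrophobic segment was found, stood at -0.68. Soluble coat subunits had 14 of 20 members called lower and 4 called higher (median -0.33), with Sec24c at -0.76, Sec31a at -0.58 and Copa at -0.45. The Sar1 GTPases, which start COPII coat assembly at the ER, went the other way. Sar1b stood at 82.8, 82.4 and 76.1 CPM against 39.9, 40.3 and 39.5 CPM, a log2 fold of 1.01 (SE 0.04), and Sar1a at 199, 196 and 186 CPM against 113, 118 and 117 CPM (0.74, SE 0.03). Neither pair of groups overlapped, and no hydrophobic segment was found in either protein. Of all tested genes, 33.0% had every ER-bound library above every whole-cell one.

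**Figure D3:**
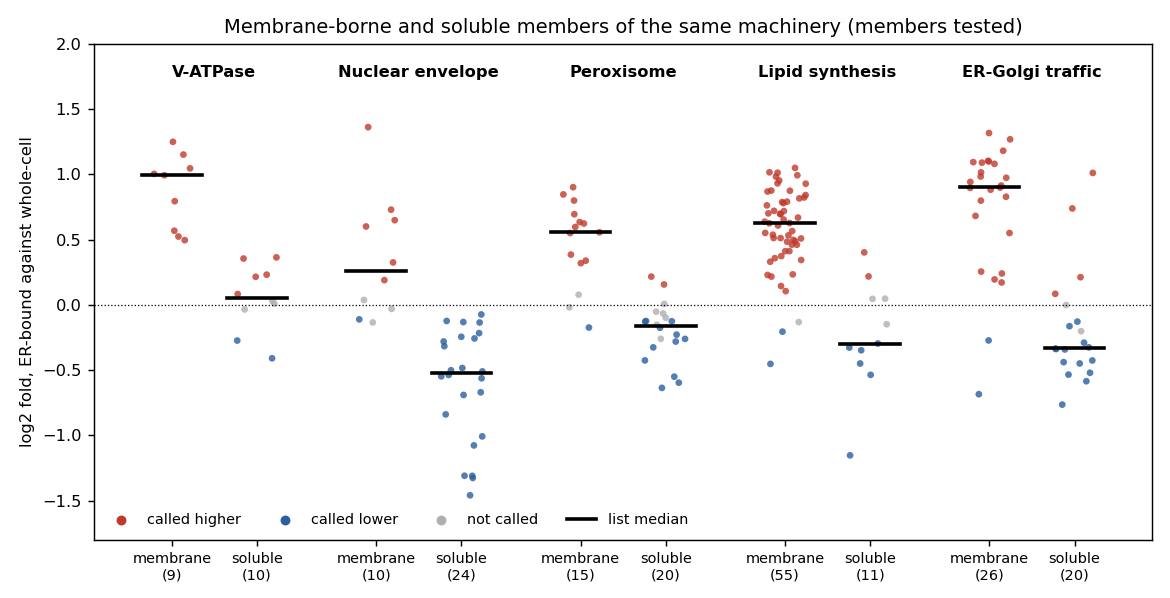
Log2 fold of ER-bound against whole-cell RNA for membrane-borne and soluble members of 5 kinds of machinery; points are genes, coloured by call, and black bars list medians. The membrane medians are 0.99, 0.26, 0.56, 0.63 and 0.91 from left to right, and the soluble ones 0.06, -0.52, -0.16, -0.30 and -0.33.

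Tail-anchored proteins were counted by destination. Those of the secretory pathway and nuclear envelope had 11 of 38 members called higher and 5 called lower, with 22 not passing (median 0.06), although all 38 had a hydrophobic segment. The balance of these calls turned with the scaling: 9 were higher and 14 lower under the GC and length offset (median -0.00628), and 21 higher and 3 lower with library totals (0.14). Sec61b stood at 97.3, 96.1 and 92.8 CPM against 78.4, 78.4 and 80.8 CPM (log2 fold 0.27, SE 0.03). Vapa stood at 211, 216 and 205 CPM against 221, 216 and 217 CPM and did not pass (-0.05, edgeR adjusted p = 0.17). Of the 2 mRNAs whose hydrophobic tails are printed above, 1 was called higher and the other was not. Caml (0.82), which had the highest value on the list, is an ER receptor for tail-anchored proteins and not itself tail-anchored. Its segment was classed as internal, and the counts above include it. Of members with only a tail segment, emerin (Emd) and Hmox1 each had a log2 fold of 0.32. The syntaxin Stx16 stood at -0.58. Vamp3, a vesicle SNARE, stood at 44.7, 43.0 and 45.4 CPM against 59.3, 64.1 and 67.4 CPM, a log2 fold of -0.52 (SE 0.04). Tail-anchored proteins of mitochondria had 7 of 19 members called higher and 4 called lower (median -0.02), with the apoptosis regulator Bax at 0.64, the import receptor Tomm22 at 0.43 and Bcl2l2 at -0.45. Under the GC and length offset 6 were higher and 8 lower, and with library totals 10 were higher and 3 lower.

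Nuclear genes of mitochondrial proteins were counted by role. Respiratory chain subunits had 65 of 83 members called higher and 6 called lower (median 0.29). Cox4i1, a membrane subunit of cytochrome oxidase, stood at 925, 920 and 921 CPM against 453, 474 and 471 CPM (log2 fold 0.98, SE 0.03), and the membrane-arm subunits Ndufb11 and Ndufb8 of complex I reached 0.89 and 0.80. The matrix-side subunits Sdha and Ndufs1 were lower (-0.67 and -0.52). Import proteins had 21 of 36 members called higher and 8 called lower (median 0.20), with the outer membrane proteins Tomm40 (0.93) and Tomm20 (0.81) and the inner membrane protein Timm50 (0.81) above and the matrix chaperone Hspa9 (-0.43) below. TCA cycle enzymes of the matrix had 15 of 18 members called lower and 1 called higher (median -0.16), with Ogdh at -0.65, Dlat at -0.38 and Idh3b as the exception (0.14, and -0.00296 under the GC and length offset). Slc25 carriers of the inner membrane had 18 of 44 members called higher and 11 called lower (median 0.05), and under the GC and length offset 12 called higher and 18 called lower (-0.10). The peroxisomal member Slc25a17 led the named ones (0.72), and Slc25a36 stood at -0.50. Mitochondrial ribosomal proteins had 50 of 78 members called higher and 5 called lower (median 0.16), with Mrpl55 at 0.60 and Mrpl2 at 0.36. Under the GC and length offset, the medians of the respiratory chain, import and mitochondrial ribosome lists came to 0.14, 0.06 and -0.0014, and 21 mitochondrial ribosomal proteins were higher and 20 lower.

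The mRNAs transcribed inside mitochondria, which mitochondrial ribosomes without Rpl31 translate, were lower for 13 of 13. mt-Co1 stood at 130, 131 and 134 CPM against 8337, 8032 and 8148 CPM, 1.61% of the whole-cell level, and mt-Nd6 at 0.183, 0.312 and 0.374 CPM against 37.6, 33.8 and 36.4 CPM, or 0.806%. mt-Atp8, mt-Nd3 and mt-Nd4l had no read in the ER-bound libraries and 83, 47 and 50 reads in whole-cell RNA. Mitochondrial genes together took 0.0263% to 0.0296% of the reads of the ER-bound libraries and 2.07% to 2.11% of those of whole-cell RNA.

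Among cytosolic proteins, tRNA synthetases and their scaffolds had 22 of 23 members called lower and none called higher (median -0.43). Mars, the methionyl-tRNA synthetase, stood at 107, 107 and 106 CPM against 347, 348 and 344 CPM, 30.8% of the whole-cell level (log2 fold -1.70, SE 0.03). Eprs stood at 290, 300 and 287 CPM against 733, 712 and 706 CPM (-1.295, SE 0.03), and Lars at -0.80. These 3 belong to the multi-synthetase complex. Translation factors had 27 of 45 members called lower and 4 called higher (median -0.10), with the subunit-joining factor Eif5b at -1.602, Eif3a at -0.71 and Eif3k at 0.30. Cytosolic ribosomal proteins had 66 of 85 members called higher and 9 called lower (median 0.20). Rpl18 reached 0.47 and Rplp2 0.45, and Rps2 stood at -0.33; many ribosomal protein genes share reads with pseudogenes, so single values are uncertain. Under the GC and length offset their median came to 0.02, with 26 higher and 22 lower.

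Glycolysis and pentose phosphate enzymes had 16 of 23 members called lower and 1 called higher (median -0.12), with the phosphofructokinases Pfkp and Pfkl at -0.79 and -0.70 and Tkt at 0.19 (-0.00297 under the GC and length offset). Cytoskeletal proteins had 23 of 40 members called lower and 7 called higher (median -0.10), with the myosin Myh10 at -0.72, filamin Flna at -0.52 and the small Arp2/3 subunit Arpc4 at 0.47. Cytosolic chaperones had 13 of 28 members called lower and 5 called higher (median -0.05), against 19 lower and 4 higher under the GC and length offset and 12 lower and 10 higher with library totals (0.04), with the chaperonin subunit Cct8 at -0.64, Hsp90aa1 at -0.50 and the prefoldin subunit Pfdn6 at 0.47. The proteasome had 12 of 32 subunits called higher and 9 called lower (median 0.01), but 3 higher and 19 lower under the GC and length offset (-0.11) and 19 higher and 6 lower with library totals (0.10). Its large base subunits Psmd2 and Psmd1 stood at -0.74 and -0.68, and Psmd7, of the lid, at 0.36.

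Most lists of nuclear proteins lay below the median of all genes. Chromatin remodellers and methylation enzymes were lower for 59 of 60 members (median -0.75); the exception, Dnmt3l, a short cofactor of DNA methyltransferases, did not pass (0.03). The remodeller Chd8 stood at 44.1, 44.3 and 46.2 CPM against 157, 155 and 169 CPM (log2 fold -1.84, SE 0.05), Atrx at -1.53 and Chd4 at -1.28. The median length of these products was 1700.5 residues, and under the GC and length offset the list median came to -0.50. Kinetochore and mitotic proteins had 41 of 60 members called lower and 9 called higher (median -0.29), with the kinetochore scaffold Knl1 at -2.01, the motor Cenpe at -1.77, Top2a at -0.95 and Nuf2 at 0.37. Replication proteins had 38 of 49 members called lower and 6 called higher (median -0.24), with the checkpoint adaptor Clspn at -1.65, the polymerase Pole at -1.01 and Orc5 at 0.31. Zfp genes had 205 of 373 members called lower and 31 called higher (median -0.21), with Zfp638 at -1.59 and Zfp750 at 1.42. Splicing proteins had 11 of 34 members called lower and 8 called higher (median 0.01), with 14 lower and 12 higher under the GC and length offset and 9 lower and 19 higher with library totals. Among them, Hnrnpu stood at -0.43 (0.02 under the GC and length offset) and Srsf5 at 0.30.

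The factors of the pathway in which Lsg1 acts were counted next. Late 60S maturation factors, Lsg1 included, had 14 of 20 members called lower and 2 called higher (median -0.37). The AAA protein Mdn1, which remodels pre-60S particles, stood at 62.4, 67.8 and 76.5 CPM against 324, 324 and 355 CPM (log2 fold -2.28, SE 0.16). The nucleolar GTPases Gnl2 and Gtpbp4 had log2 folds of -0.68 and -0.60, and Mrto4, a placeholder for the stalk protein, one of 0.58. Nucleolar biogenesis factors had 37 of 51 members called lower and 6 called higher (median -0.25), with the GTPase Bms1 at -1.66, Wdr36 at -0.64 and Gar1 at 0.38.

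The largest falls among nuclear protein-coding genes were mostly of very long proteins. Map1b, a microtubule-associated protein, stood at 28.6, 29.7 and 33.0 CPM against 158, 153 and 161 CPM, 19.3% of the whole-cell level (log2 fold -2.37, SE 0.06). Next to Map1b and Mdn1 came the ubiquitin ligase Rnf213 (-2.22), the recombination mediator Brca2 (-2.20), Golgb1 (-2.17), the ubiquitin ligase Birc6 (-2.13), Ahnak (-2.10), Map1a (-2.08), Herc1 (-2.05), Bod1l (-2.03) and Rif1 (-2.01). Golgb1, or giantin, is a Golgi tether of 3238 residues whose membrane span lies at its end. Lars2, the mitochondrial leucyl-tRNA synthetase, also entered this list at -2.31 but rested on 1 library. It stood at 133, 142 and 127 CPM against 270, 314 and 1403 CPM, and without whole-cell replicate 3 the log2 fold was -1.13 and did not pass (edgeR adjusted p = 0.21). In scramble cells its log2 fold of 1.13 did not pass either (edgeR adjusted p = 0.22). There it stood at 153, 131 and 2122 CPM against 236, 424 and 436 CPM, so that value rested on ER-bound scramble replicate 3. Whole-cell Lsg1 replicate 3 and ER-bound scramble replicate 3 also had the largest shares of reads in ENSMUSG00000119584 (1.49% and 1.86%). Whether the excess reads of Lars2 and of that gene had the same source was not tested.

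Hydrophobic segments were then counted in the products of 14592 protein-coding genes. A membrane-span-like segment was a window of 19 residues with a mean hydropathy of at least 1.6, and an N-terminal segment a window of 11 residues with a mean of at least 2.0 within residues 2 to 35. Of 9093 genes without any segment, 22.2% were called higher and 40.5% lower (median -0.07). Of 1167 genes with only an N-terminal segment, 68.8% were higher and 8.05% lower (median 0.64). This class does not separate cleaved signal peptides from uncleaved N-terminal anchors, and it holds, for example, the ER-anchored Ephx1. Products with 2 to 4, 5 to 8 and 9 or more span-like segments were higher for 60.4%, 64.3% and 59.1% (medians 0.47, 0.51 and 0.35). They were lower for 19.4%, 4.92% and 7.39%. For 2238 products with 1 internal segment 45.8% were higher and 27.5% lower, and at the stricter hydropathy of 1.9 the higher share was 62.2% of 1455. For 217 products whose only segment lay within 30 residues of the end, 32.7% were higher and 25.3% lower (median 0.07). Of the 813 classified genes higher by at least 2-fold, 84.4% had a segment, against 37.7% of all classified genes. Of the 303 lower by at least 2-fold, 49.2% had a segment, also above that share, and of the 4814 not called, 29.7%. The scan is a description of sequence and no prediction of location: it found none in Serpine2 and Grn, which are secreted, and found segments in 10 of the 24 soluble nucleoporins. Among products ending in a KDEL-type retrieval signal, 31 of 34 were higher and none lower (median 0.88).

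Protein length went with the log2 fold inside both kinds of product. Across the 14592 genes, which are not independent replicates, Spearman's rho between length and log2 fold was -0.43, and among the 9093 without a segment it was -0.54. Products without a segment had a median log2 fold of 0.16 under 200 residues, -0.13 at 400 to 799 and -0.76 at 1600 or more. Products with a segment had medians of 0.72, 0.40 and -0.57 in the same bins. At 800 to 1599 residues, 34.6% of genes with a segment and 4.48% of those without were called higher. With segments called at a hydropathy of 1.9, the median of the longest bin with a segment was -0.26. Across the same 14592 genes the log2 fold also went with transcript length (rho -0.41, and -0.52 without a segment), nearly as closely as with protein length, with the GC content of the transcript (rho 0.22) and with its level (rho -0.27), and the part of these properties in the values was not tested beyond the offset named above.

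**Figure D4:**
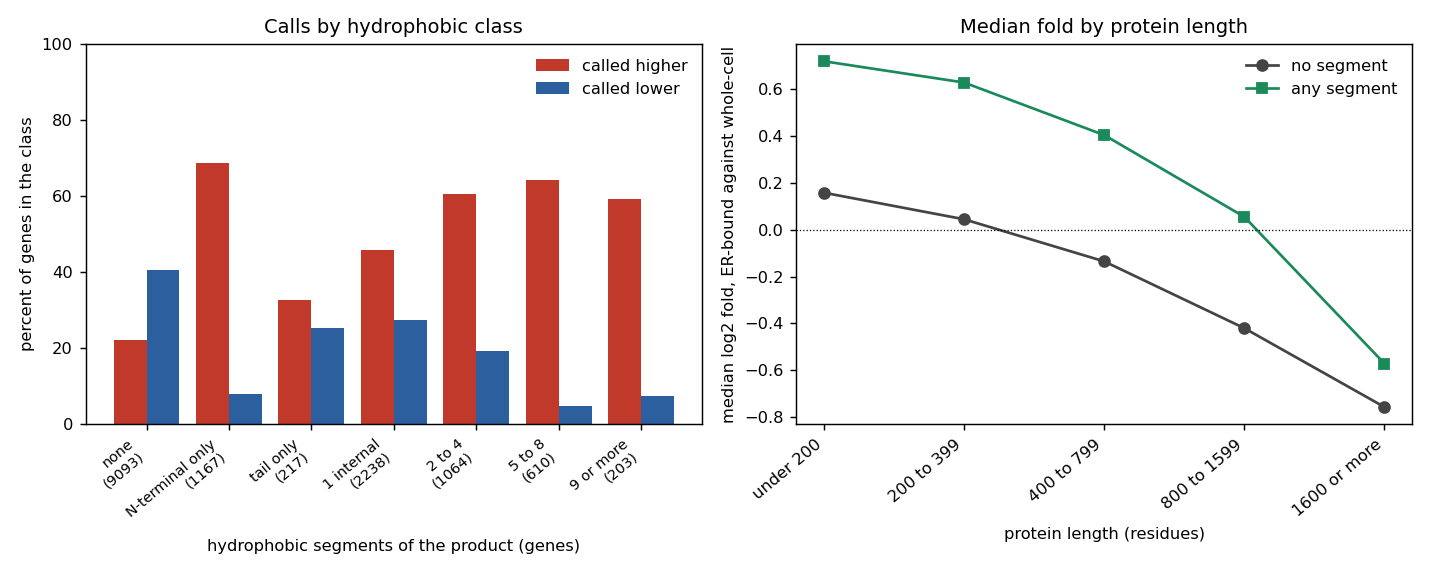
Left, percent of genes called higher and lower on ER-labelled ribosomes by the hydrophobic segments of the product, with the number of genes in parentheses. Right, median log2 fold by protein length for products with and without a segment, which run from 0.72 to -0.57 and from 0.16 to -0.76.

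Noncoding transcripts were counted last among the lists. Of 26 tested nuclear noncoding RNAs and snoRNA hosts, 14 were lower and 4 higher (median -0.19). Rian, an imprinted noncoding RNA, stood at 33.9, 37.2 and 48.2 CPM against 161, 167 and 172 CPM (log2 fold -2.07, SE 0.09), Snhg14 at -1.96 and the paraspeckle RNA Neat1 at -1.10. Snhg5, which had 159 CPM in each ER-bound library, was slightly higher (0.21). By annotated type, 21 of 25 snoRNAs were lower and none higher (median -1.75), as were 23 of 35 sense-intronic transcripts (-0.97). The libraries were of polyadenylated RNA, and whether these reads came from the snoRNAs themselves or from their host transcripts was not tested. Long intergenic noncoding RNAs had 117 of 543 members called lower and 68 called higher.

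The enrichment in Lsg1 siRNA cells was set beside that in scramble siRNA cells, with which it shares no library. Of the genes called higher in Lsg1 siRNA cells, 85.3% were also called higher in scramble cells, which is 87.5% of the scramble list. For lower genes the shares were 88.9% and 91.1%. Medians in scramble cells were 0.89 for lumenal folding, 0.66 for the translocon, 0.92 for membrane V-ATPase, 0.03 for secretory tail-anchored proteins and -0.75 for chromatin regulators. Lists of the ER and of secretory cargo had higher medians in Lsg1 siRNA cells, except SRP and its receptor (0.02 against 0.03). Gaps were widest for the ER membrane complex (0.62 against 0.42) and ER-associated degradation (0.67 against 0.47). Secreted ligands and matrix proteins had a narrow gap (0.71 against 0.68). Several lists of soluble proteins had lower medians in Lsg1 siRNA cells, so higher medians on the ER side were not the only shift. Among them were late 60S maturation (-0.37 against -0.25), soluble peroxisomal proteins (-0.16 against -0.07) and tRNA synthetases (-0.43 against -0.38). Not all soluble lists did so: coat subunits had -0.33 against -0.34. The median of all tested genes was 0.02 against 0.03. Whether these lists differed between the siRNAs as sets was not tested. By the edgeR interaction test over all genes, 4 genes (0.0226%) had an enrichment that differed between the siRNAs, and 1219 had an unadjusted p under 0.05. With the same-lysate pairs as a block, 10 genes were called. Apart from Lsg1 and Vamp3, no member of the 46 lists was among the 4. Lsg1 had a log2 fold of 0.04 in scramble cells, and the difference was -1.22 (SE 0.15, edgeR adjusted p = 0.0013). Vamp3 had a log2 fold of -0.13 in scramble cells, and the difference was -0.39 (SE 0.06, edgeR adjusted p = 0.026). A difference that missed this test is not shown to be absent.

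**Figure D5:**
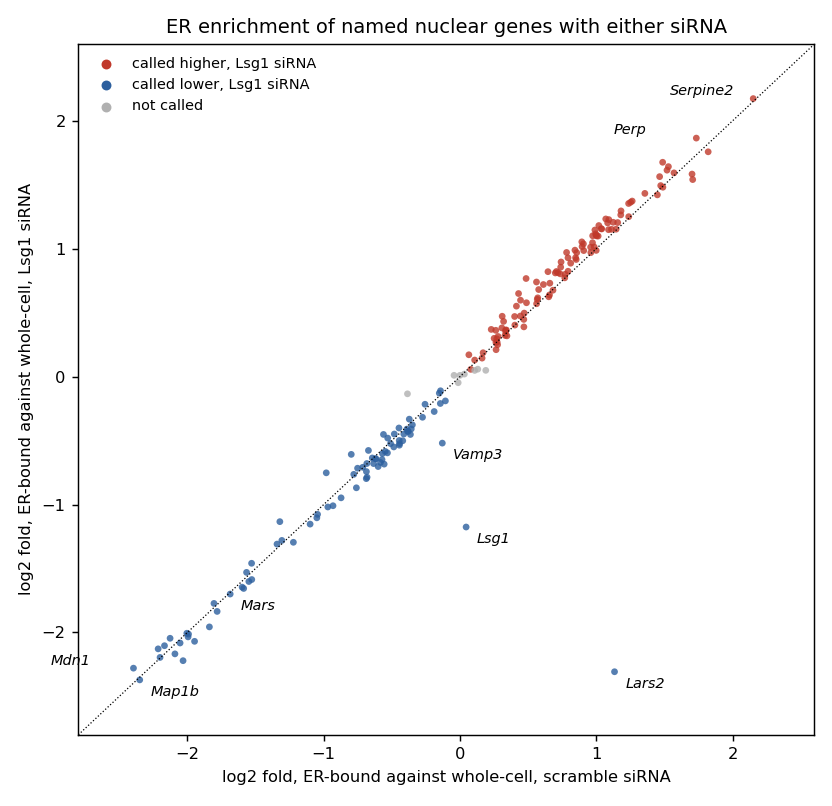
Log2 fold of ER-bound against whole-cell RNA in scramble siRNA cells (x axis) and Lsg1 siRNA cells (y axis) for 197 named nuclear genes, coloured by call in Lsg1 siRNA cells; the dotted line marks equal values. Lsg1 and Vamp3 lie below the line, and Lars2 (1.13 and -2.31) lies far from it without passing the interaction test.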

How the data were processed

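Polyadenylated RNA (750 ng, directional kit, 9 PCR cycles, 150 bp paired reads) was sequenced from 12 libraries. The authors deposited raw HTSeq read counts per gene, made with STAR 2.7.9a and HTSeq 0.11.2 on GRCm39, per the submitters' processing notes, which also name DESeq2; annotation release and strand setting: not given in the sources used here, so overlapping and antisense genes are uncertain. Of 55416 genes listed, 52083 (94.0%) were named from GENCODE vM21 on GRCm38; the 5 summary lines were left out. edgeR 4.0.16 (R 4.3.3) was run with filterByExpr, TMM scaling and quasi-likelihood F-tests on all 12 libraries with 1 mean per group (8 residual degrees of freedom, coefficient of biological variation 4.42%), with Benjamini-Hochberg adjustment over 17702 genes and a prior count of 0.125 for folds. P-values measure the spread between samples labelled biological replicates. Same-numbered libraries shared a lysate; their deviations correlated at r = 0.294, 0.0108 and 0.302 over 9234 genes. Members and lists were chosen with earlier results of these data known. Named genes were the 12 largest called changes in each direction at 10 CPM or more with all pairs agreeing in sign, the 12 largest falls of nuclear genes, and per list the 3 smallest p in its main direction and 2 in the other; list members named because they did not pass, and other examples, were chosen after their values were seen. Hydrophobic segments were read from GENCODE vM21 coding sequences, a choice made after the files were seen, since no protein table was given. Alternatives used limma 3.58.1 and DESeq2 1.42.0, other scalings and filters, a GC and length offset, a replicate block and leaving out libraries. The scripts were tested on simulated data; figures used matplotlib 3.10.9 in Python 3.11.15.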

Additional observations from a re-analysis of the deposited data

Results flagged for a closer look

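The ER enrichment of 2 named genes differed between the siRNAs by the edgeR interaction test. For Lsg1 the difference, Lsg1 siRNA minus scramble siRNA, was -1.22 on the log2 scale (SE 0.15, edgeR adjusted p = 0.0013). Mean levels were 43.5 CPM on ER-labelled ribosomes and 98.0 CPM in whole-cell RNA of Lsg1 siRNA cells, and 148 and 143 CPM in scramble cells. For Vamp3 the difference was -0.39 (SE 0.06, edgeR adjusted p = 0.026). Its mean levels were 44.4 and 63.6 CPM in Lsg1 siRNA cells and 67.0 and 73.3 CPM in scramble cells. With the same-lysate pairs as a block the adjusted p values from edgeR were 8.2e-09 for Lsg1 and 0.014 for Vamp3.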

How the results depend on the processing

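Of the log2 folds of named genes recomputed under each alternative, 3205 kept direction and call, 25 lost the call, 14 gained one and 8 turned direction. All 8 turned with the GC and length offset: Hnrnpu 0.0185, Hsp90ab1 -0.13, Idh3b -0.00296, Nup210 0.0427, Pou5f1 -0.23, Ptch1 0.0252, Rpl31 -0.00892 and Tkt -0.00297. The same offset turned the medians of the secretory tail-anchored (-0.00628), Slc25 (-0.10) and mitochondrial ribosomal (-0.0014) lists. It put 4652 genes higher and 5925 lower. Of the 5412 genes called higher and 5271 called lower in the main fit, 3873 and 4358 kept their call under the offset. There, 385 genes were called in the opposite direction, which occurred under no other alternative. Library totals turned the median of the cytosolic chaperones (0.0371). Library totals put 61.7% of called genes on the higher side, against 49.1% with DESeq2 size factors. Leaving out 1 library gave 4784 to 5079 higher and 5037 to 5474 lower genes. With the replicate block, 5557 genes were higher and 5392 lower and the interaction called 10 genes. A stricter filter on low counts left 528 genes higher and 325 lower by at least 2-fold. The share called higher among products without a segment was 23.7% at 10 CPM or more, 15.7% with the offset, 20.3% without whole-cell replicate 3 and 23.2% with the replicate block. For products with only an N-terminal segment it was 78.0% at 10 CPM or more and 65.2% with the offset. At a hydropathy of 1.9 it was 41.7% for tail-only products, 62.2% for 1 internal segment, 72.8% for 2 to 4 and 44.2% for 9 or more. At 10 CPM or more it was 64.0% for 2 to 4, 80.7% for 5 to 8 and 68.7% for 9 or more, and without whole-cell replicate 3 it was 43.0% for 1 internal segment. The cause of these changes was not tested. Depth limits genes near the expression filter, such as Emc9.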

Other observations

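Unconfirmed gene models (TEC in the annotation) were lower on ER-labelled ribosomes for 128 of 248 and higher for 9, with a median log2 fold of -0.81. Processed pseudogenes were higher for 110 of 1118 and lower for 78 (median 0.03), and antisense transcripts were higher for 45 of 428 and lower for 48 (median 0.02). Reads of processed pseudogenes and of their parent genes may not have been separated by the counting.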
